A study of Mus musculus with 12 samples.

Results

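The genes described here encode the proteins of the mitochondrial ribosome. They were chosen by symbol, as every gene named Mrpl or Mrps followed by a number, pseudogenes left out, with at least 10 counts in at least 3 of the 12 libraries. The rule gave 76 of the 46983 genes in the files. Of these, 50 encode proteins of the large subunit and 26 proteins of the small subunit. Another 2 genes with such a name, Mrpl53 and Mrps36, fell under the count minimum, and 5 pseudogenes carried the name.

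Mitochondria translate the few proteins of their own genome on a ribosome of their own. Its ribosomal RNAs are transcribed inside the organelle from mitochondrial DNA, while its proteins are encoded in the nucleus, made in the cytosol and imported, so the ribosome needs both genomes. Many of these proteins descend from those of bacterial ribosomes, and the others were added in the evolution of mitochondria. The products of mitochondrial translation are membrane subunits of the respiratory chain and ATP synthase, on which the hepatocyte, rich in mitochondria and active in fatty acid oxidation, draws for ATP. The roles given below come from the mammalian ribosome or from bacterial counterparts.

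RNA sequencing was done on primary mouse hepatocytes in 4 groups of 3 libraries. The groups were AEG-1-L24K/L25H cells treated with CP775146, the same cells left untreated, AEG-1-WT cells treated with CP775146, and AEG-1-WT cells left untreated. AEG-1 is the protein encoded by Mtdh, and the L24K and L25H changes fall in the LXXLL motif through which it binds the retinoid X receptor, the partner of PPARα on DNA. CP775146 is an agonist of PPARα, the nuclear receptor that switches on fatty acid oxidation genes, and was given at 2.5 µM for 24 h. The L24K/L25H mice, called KI here, were made with CRISPR/Cas9 on a C57BL/6/J background, and the AEG-1-WT animals, called WT, were littermates from crosses of heterozygotes on regular chow. No vehicle is named for the untreated cells. The labels do not say whether replicate libraries stand for different mice or cultures, so p-values measure the spread between these libraries, which may be technical. KI and WT cells necessarily came from different mice, and an effect of the mice or of the cell preparation cannot be told apart from that of the genotype. In bulk RNA, fewer cells of a type and less RNA per cell cannot be told apart.

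Each library held 26956032 to 34885451 counts, at which 3 counts correspond to 0.0844 to 0.113 CPM (counts scaled to library totals times their TMM factors of 0.917 to 1.066), a floor that covers counting error only. Mtdh itself, which carries the change, averaged 192.5 ± 3.72 CPM in treated and 172.9 ± 1.98 CPM in untreated KI cells, and 181.3 ± 4.32 CPM in treated and 166.1 ± 8.47 CPM in untreated WT cells (SD, n = 3 each), and gene counts do not show the edit. Ehhadh, a peroxisomal beta-oxidation gene and classical PPARα target, averaged 5157 ± 90.1 CPM in treated KI cells and 68.7 ± 0.681 CPM in untreated KI cells, and 3898 ± 93.5 CPM in treated WT cells and 52.5 ± 2.67 CPM in untreated WT cells (SD, n = 3 each). Hepatocyte markers were abundant, with Alb at 64300 CPM or more in every library, but their level moved with the groups. The 6 hepatocyte markers, mostly Alb, summed to 72940 to 75600 CPM in treated KI, 78730 to 83280 CPM in untreated KI, 116000 to 122700 CPM in treated WT and 112900 to 115800 CPM in untreated WT libraries. Between genotypes, 4 of the 6 were lower and 1 higher in KI cells with treatment, and 3 of the 6 were lower and 0 higher without. Marker lists of other cells moved as well. The 4 proliferation markers summed to 44.6 to 47.4 CPM in treated KI, 60.25 to 63.85 CPM in untreated KI, 11.97 to 12.56 CPM in treated WT and 19.01 to 21.16 CPM in untreated WT libraries. The 5 cholangiocyte markers summed to 48.3 to 52.5 CPM in treated KI, 40.8 to 43.4 CPM in untreated KI, 32.8 to 33.7 CPM in treated WT and 15.07 to 17.99 CPM in untreated WT libraries. The 6 macrophage markers, nearly all of it Cd68, summed to 106.4 to 120.3 CPM in treated KI, 151.9 to 161.0 CPM in untreated KI, 184.6 to 189.2 CPM in treated WT and 211.8 to 252.2 CPM in untreated WT libraries. Cd68 set that order, since over the 6 macrophage genes the KI minus WT difference was positive for 4 with treatment (median 0.292 log2) and for 5 without (median 0.263 log2). The 6 stellate cell markers, mostly Reln, summed to 64.6 to 74.4 CPM in treated KI, 105.2 to 117.6 CPM in untreated KI, 154.7 to 191.8 CPM in treated WT and 181.3 to 214.2 CPM in untreated WT libraries. The 6 endothelial markers, mostly Stab2, summed to 34.2 to 39.6 CPM in treated KI, 45.55 to 51.2 CPM in untreated KI, 65.05 to 67.8 CPM in treated WT and 75.4 to 86.5 CPM in untreated WT libraries. The endothelial marker Clec4g and the leukocyte markers Cd3e, Cd79a, S100a8 and Ly6g were at or near 0. Ptprc, the other leukocyte marker, had counts in all 12 libraries, at 0.0657 to 0.376 CPM. The part of these shifts in the results was not tested.

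Per kilobase of exon, the members spanned a wide range of levels. Their median was 17.45 RPKM (CPM per kilobase), against 4.45 RPKM over all 15664 genes tested, and 68 of the 76 stood above that median. Large subunit genes had a median of 19.0 RPKM and small subunit genes one of 14.0 RPKM. The highest mean levels belonged to 3 large subunit genes. Mrpl14, whose protein lies at the face where the subunits meet, averaged 65.4 RPKM, Mrpl16, a protein of the tRNA-binding side of the large subunit, 57.2 RPKM, and Mrpl54, a mitochondrion-specific protein, 54.9 RPKM.

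Of the 3 members with the lowest levels, Mrpl23 and Mrpl48 have named pseudogenes. Mrpl23, whose bacterial counterpart lies at the peptide exit, was listed at 0.471 RPKM, with 19 to 36 counts a library, just inside the rule. Its pseudogene Mrpl23-ps1 held 280 to 407 counts a library. Mrpl48, a mitochondrion-specific large subunit gene, averaged 2.15 RPKM with 304 to 510 counts, and Mrpl48-ps held 101 to 201 counts. Mrps33, of the small subunit, averaged 1.84 RPKM with 56 to 136 counts. Just outside the rule, Mrps36 held 0 to 8 counts a library, while Mrps36-ps1 held 10 to 38 and Mrps36-ps2 11 to 18. Its protein carries the ribosomal name but is a subunit of the 2-oxoglutarate dehydrogenase complex. Mrpl53 held 0 to 3 counts, and 88.0% of its exon length lies within the same-strand gene Gm42688. The command line in the deposited files sets no option for reads that fit several places or several genes, and such reads cannot be assigned, so the levels of these genes are uncertain.

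**Figure D1:**
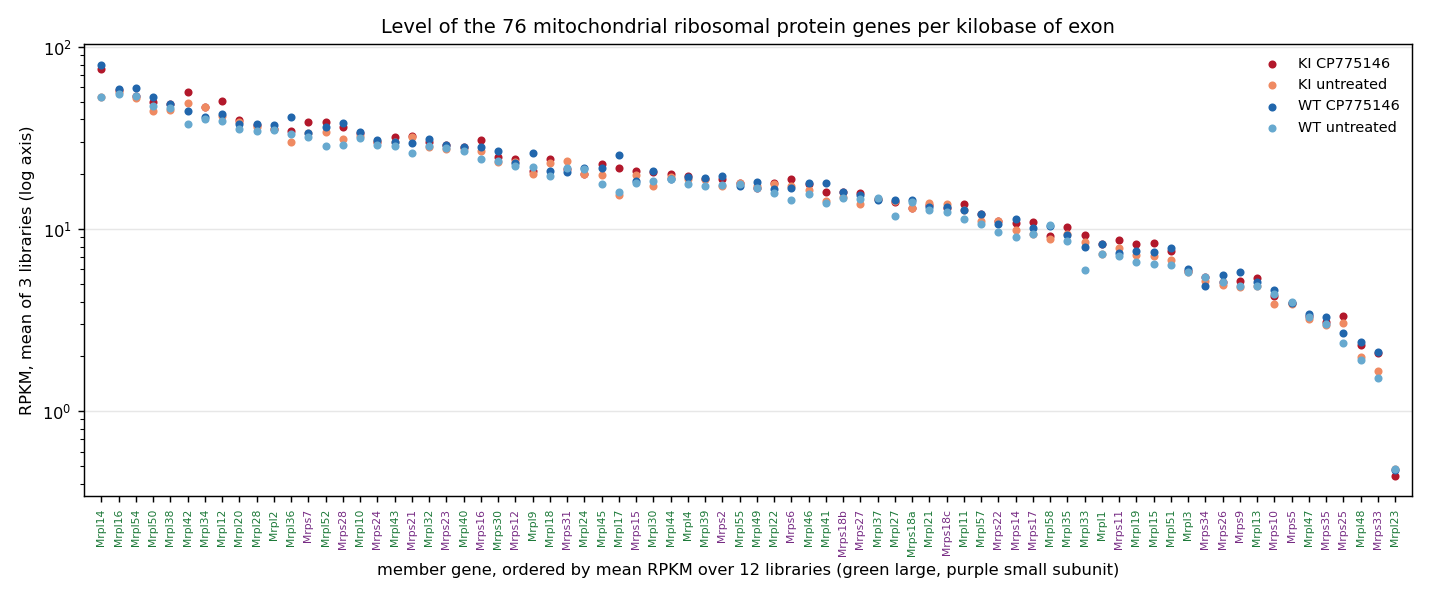
Mean level of each of the 76 member genes in RPKM (log axis) in the 4 groups of 3 libraries, in order of the mean over all 12 libraries, with large subunit names in green and small subunit names in purple. The levels run from 65.4 RPKM for Mrpl14 to 0.471 RPKM for Mrpl23, and the 4 groups lie close together for most genes.

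With CP775146 many members rose by small amounts in both genotypes, and 1 fell in KI cells. In KI cells 24 of the 76 rose and 1 fell, that is 31.6% higher, against 37.2% called among all genes tested, 18.1% higher and 19.1% lower. In WT cells 35 rose and 0 fell, that is 46.1% higher, against 45% called among all, 22.7% higher and 22.3% lower. The median log2 change was 0.085 in KI cells and 0.12 in WT cells, beside -0.01 in KI cells and -0.005 in WT cells over all genes, and 67 members in KI cells and 68 in WT cells had a positive change. Calls were made with edgeR's quasi-likelihood test at a Benjamini-Hochberg adjusted p under 0.05 over all genes tested. The rises that passed ran from 0.11 to 0.52 log2 in KI cells and from 0.11 to 0.68 log2 in WT cells, and 2 of them, both in WT cells, exceeded 1.5-fold. Treated and untreated libraries did not overlap for 24 of the 24 members that rose in KI cells and for 31 of the 35 in WT cells. Among all called genes they did not overlap for 97.7% in KI cells and 92.1% in WT cells. Over all 76 members, called or not, they did not overlap for 37 in KI cells (48.7%, against 51.9% of all genes tested) and 35 in WT cells (46.1%, against 49.0%). For the falls in WT cells, 1 member had an unadjusted p under 0.05 with edgeR, and DESeq2 and limma voom also called 0. Without untreated KI replicate 3, 14 of the 76 rose in KI cells, against 15.2% of all genes. Without untreated WT replicate 3, 1 of the 76 fell in WT cells, against 21.5% of all genes. With libraries scaled by total count instead, the median of all genes lay at -0.104 log2 in WT cells, and 15 members rose and 3 fell there. Of all genes tested, 15.1% rose and 34.1% fell in WT cells with that scaling. The members' median was then 0.021 log2 in both genotypes.

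**Figure D2:**
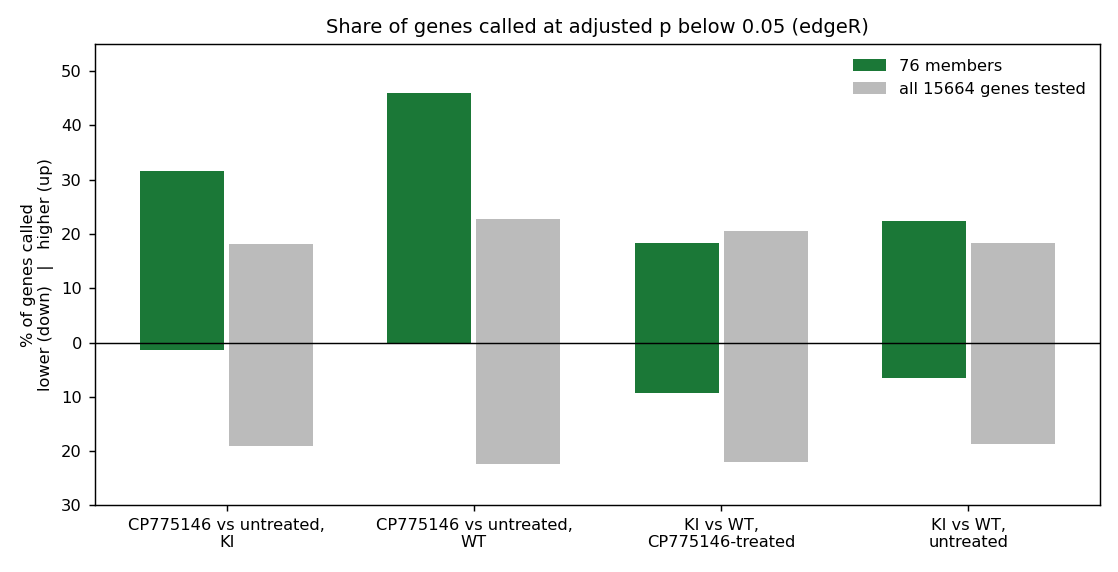
Percent of the 76 members (green) and of all 15664 genes tested (grey) called higher (upward bars) or lower (downward bars) by edgeR at an adjusted p under 0.05 in 4 comparisons. Under CP775146 the members' share of rises was 31.6% in KI cells and 46.1% in WT cells, beside 18.1% and 22.7% of all genes.

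The pair that changed most, Mrpl17 and Mrpl14, belongs to the large subunit. The promoter sequences of these genes and of Mrpl45 are shown because, of the members with a window in the RefSeq table (GRCm38.p6), they stood first among those that rose in both genotypes. Mrpl45 was thus named after its values were seen. Mrpl17 lies on the minus strand of chromosome 7 (105806658 to 105811099, GRCm38) and its window is chr7:105811038-105811337. Mrpl14 lies on the plus strand of chromosome 17 (45686322 to 45698495), with the window chr17:45686099-45686398. Mrpl45 lies on the plus strand of chromosome 11 (97315716 to 97329920), with the window chr11:97315466-97315765. Each window holds 250 bases before and 50 bases after the start, 5′ to 3′ along the gene, and capitals mark matches on either strand to the NRF1 motif, GCGC and TGCGC with any 1 base between them, or to the ETS motif CCGGAAG.
Mrpl17: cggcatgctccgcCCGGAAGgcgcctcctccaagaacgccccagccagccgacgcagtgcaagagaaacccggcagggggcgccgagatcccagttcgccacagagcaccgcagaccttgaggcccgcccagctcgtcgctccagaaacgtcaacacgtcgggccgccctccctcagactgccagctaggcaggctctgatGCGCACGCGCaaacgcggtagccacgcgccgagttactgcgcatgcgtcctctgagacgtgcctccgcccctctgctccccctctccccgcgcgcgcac
Mrpl14: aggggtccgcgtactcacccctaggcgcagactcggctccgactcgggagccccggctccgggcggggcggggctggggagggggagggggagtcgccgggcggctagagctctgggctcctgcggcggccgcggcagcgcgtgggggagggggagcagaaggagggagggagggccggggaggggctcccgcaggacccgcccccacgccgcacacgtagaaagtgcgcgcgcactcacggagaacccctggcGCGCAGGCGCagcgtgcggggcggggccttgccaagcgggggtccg
Mrpl45: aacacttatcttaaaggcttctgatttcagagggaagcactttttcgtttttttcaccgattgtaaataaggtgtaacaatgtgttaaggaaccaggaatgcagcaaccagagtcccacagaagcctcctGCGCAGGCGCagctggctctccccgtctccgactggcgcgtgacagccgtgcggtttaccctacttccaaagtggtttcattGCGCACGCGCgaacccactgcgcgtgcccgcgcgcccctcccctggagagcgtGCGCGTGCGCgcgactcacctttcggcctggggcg
The NRF1 match of Mrpl17 begins 49 bases before the start and its ETS match 237 bases before it. In Mrpl14 the single NRF1 match lies just after the start, and Mrpl45 has 1 NRF1 match 120 bases before the start, 1 at 38 bases before it and 1 after it.

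Mrpl17 (ENSMUSG00000030879), whose bacterial counterpart sits near the peptide exit of the large subunit, had 92.1, 87.25 and 89.8 CPM in treated KI cells, against 65.2, 61.6 and 65.8 CPM in untreated KI cells. It had 106, 102 and 111 CPM in treated WT cells, against 63.93, 67 and 67.9 CPM in untreated WT cells. Every treated library was above every untreated one, and the treated WT libraries were the highest of all. The change was 0.48 ± 0.04 log2 in KI cells (SE, adjusted p = 1.56e-10) and 0.68 ± 0.04 log2 in WT cells (adjusted p = 5.81e-14), or 1.61-fold.

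Mrpl14 (ENSMUSG00000023939) had 70.0, 72.6 and 72.7 CPM in treated KI cells, against 49.5, 50.9 and 50.2 CPM in untreated KI cells. In treated WT cells it had 75.2, 68.4 and 84.4 CPM, against 45.8, 53.1 and 52.6 CPM in untreated WT cells. The treated and untreated libraries were again apart in both genotypes, with more spread among WT libraries. It rose by 0.52 ± 0.06 log2 in KI cells (adjusted p = 4.03e-07) and 0.59 ± 0.06 log2 in WT cells (adjusted p = 5.26e-08). Of its exon length, 11.2% is shared with the antisense gene Tmem63b.

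Among the other large subunit genes, Mrpl12 encodes the stalk protein that recruits translation factors. It had 78.3, 74.98 and 80.1 CPM in treated KI cells, against 63.7, 64.1 and 64.2 CPM in untreated KI cells, and the groups were apart. It rose by 0.28 ± 0.05 log2 in KI cells (adjusted p = 8.88e-06). In WT cells it had 68.2, 60.2 and 68.1 CPM with treatment and 59.1, 60.6 and 60.0 CPM without, the groups overlapped, and the rise of 0.13 ± 0.05 log2 just passed (adjusted p = 0.0263). Without treated WT replicate 1 or 3 or untreated WT replicate 1 it no longer passed.

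Mrpl30, a protein with a bacterial counterpart, rose by 0.24 ± 0.04 log2 in KI cells (adjusted p = 2.94e-05) and 0.20 ± 0.04 log2 in WT cells (adjusted p = 0.000415). Mrpl45 encodes the protein that anchors the ribosome to the inner membrane beside the exit. It averaged 59.0 ± 1.53 CPM in treated and 51.2 ± 1.57 CPM in untreated KI cells, and 55.9 ± 1.77 CPM in treated and 45.6 ± 1.08 CPM in untreated WT cells, with no overlap in either genotype. Its change was 0.21 ± 0.04 log2 in KI cells (adjusted p = 0.000316) and 0.29 ± 0.05 log2 in WT cells (adjusted p = 3.69e-06). Mrpl54 rose by 0.16 ± 0.06 log2 in WT cells (adjusted p = 0.0344) with overlapping libraries, a call lost without treated WT replicate 1 or 3 or untreated WT replicate 1 or 2, and Mrpl16 did not pass in either genotype. In all, 17 of the 50 large subunit genes rose in KI cells (34%, median of the 50, 0.08 log2) and 25 in WT cells (50%, median 0.13 log2), and 0 fell in either. Of all genes tested, 18.1% rose and 19.1% fell in KI cells, and 22.7% rose and 22.3% fell in WT cells.

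In the small subunit 7 of 26 genes rose and 1 fell in KI cells (median 0.10 log2), and 10 rose and 0 fell in WT cells (median 0.11 log2). The rises are 26.9% of these genes in KI cells, against 18.1% of all genes, and 38.5% in WT cells, against 22.7%. Mrps28, the counterpart of bacterial protein S1, had 28.1, 28.4 and 28.9 CPM in treated KI cells, against 25.6, 23.7 and 23.8 CPM in untreated KI cells. In WT cells it had 29.3, 28.4 and 31.7 CPM with treatment, against 21.2, 22.1 and 24.7 CPM without, so that the groups were apart in both genotypes. It rose by 0.22 ± 0.06 log2 in KI cells (adjusted p = 0.00273) and 0.39 ± 0.06 log2 in WT cells (adjusted p = 3.38e-06). Mrps33, on few counts, changed by 0.35 ± 0.15 log2 in KI cells (adjusted p = 0.0682) and rose by 0.47 ± 0.16 log2 in WT cells (adjusted p = 0.0174), a call lost without treated WT replicate 2 or untreated WT replicate 1.

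The single fall was that of Mrps31, a mitochondrion-specific protein of the small subunit. It had 30.7, 34.1 and 33.6 CPM in treated KI cells, against 35.2, 37.9 and 35.5 CPM in untreated KI cells, which lay above them all. The change was -0.14 ± 0.05 log2 (adjusted p = 0.0356), and it no longer passed without treated KI replicate 1 or untreated KI replicate 2 or 3, or with DESeq2.

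By origin, 16 of the 46 members named after bacterial ribosomal proteins (34.8%) and 8 of the 30 specific to mitochondria (26.7%) rose in KI cells, against 18.1% of all genes tested. In WT cells 20 of the 46 (43.5%) and 15 of the 30 (50%) rose, against 22.7% of all. In KI cells 10 of the 30 large subunit and 6 of the 16 small subunit genes of bacterial name rose, and 7 of the 20 and 1 of the 10 mitochondrion-specific ones. In WT cells the same classes gave 13 of 30, 7 of 16, 12 of 20 and 3 of 10. Whether these shares differ between the classes was not tested. Of the members, 47 share no exon with another gene, and among them 16 rose and 1 fell in KI cells and 23 rose and 0 fell in WT cells.

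**Figure D3:**
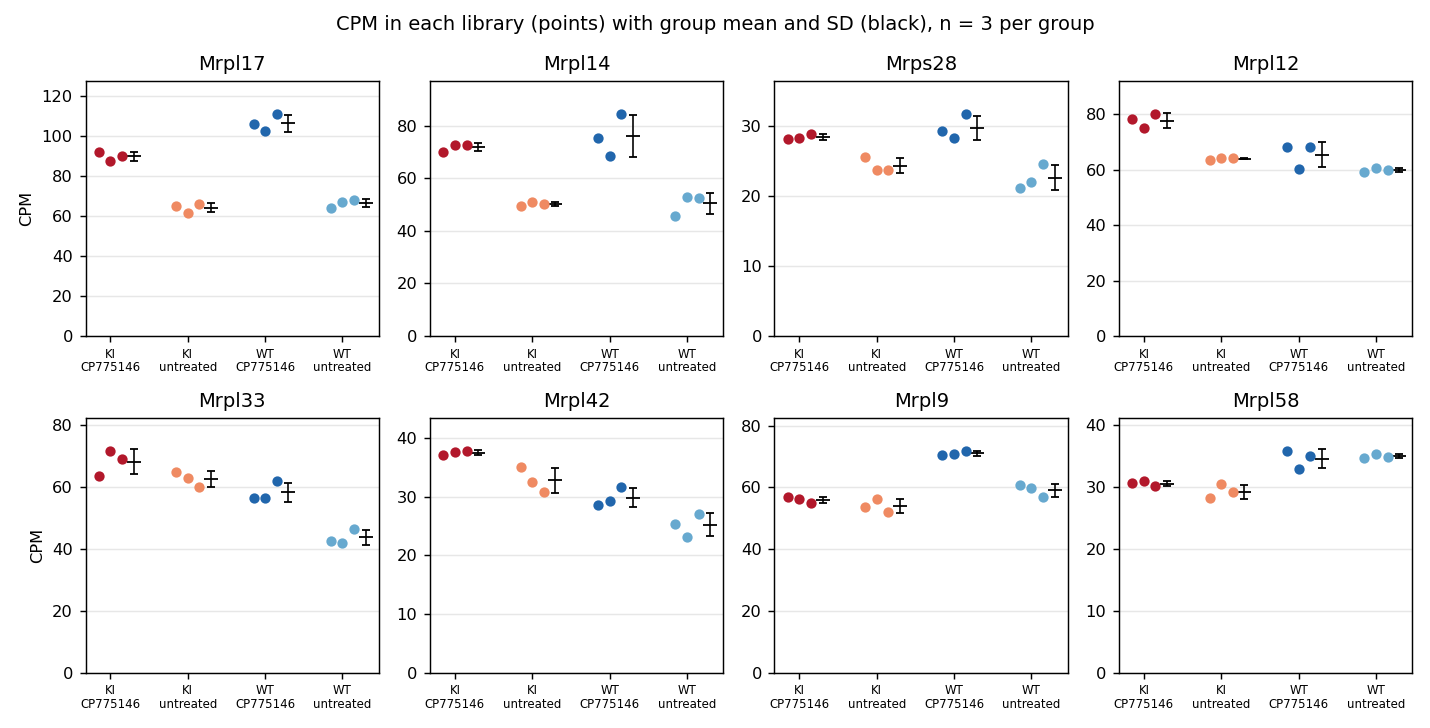
CPM of 8 member genes in each of the 12 libraries, by group (KI with CP775146, KI untreated, WT with CP775146, WT untreated); points are libraries and the black marks the mean with the SD (n = 3). Mrpl17 and Mrpl14 stood higher with treatment in both genotypes, Mrpl33 and Mrpl42 stood higher in untreated KI than in untreated WT cells, and Mrpl9 stood near 55 CPM in all KI libraries.

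Of the members that rose, 18 did so in both genotypes, which is 75% of the 24 in KI cells and 51.4% of the 35 in WT cells, and 0 were called in opposite directions. Over all genes tested, 2218 rose in both, or 78.3% of those that rose in KI cells and 62.4% of those in WT cells, and the difference was not tested. The 18 were Mrpl1, Mrpl12, Mrpl14, Mrpl15, Mrpl17, Mrpl19, Mrpl30, Mrpl36, Mrpl42, Mrpl45, Mrpl48, Mrpl50, Mrpl51 and Mrpl52 of the large subunit and Mrps2, Mrps16, Mrps17 and Mrps28 of the small subunit. The estimated log2 change, taken with its sign, was higher in WT than in KI cells for 53 of the 76.

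The difference between the CP775146 effects, KI minus WT, was tested by the interaction term. It passed for 3 members (3.95%), Mrpl33, Mrpl9 and Mrpl17, all with the smaller rise in KI cells, and for 0 members in the other direction. Among all genes tested 7.11% passed (2.78% higher and 4.33% lower), so the members' share was not above that of all genes. In that other direction 1 member had an unadjusted p under 0.05 with edgeR, and DESeq2 and limma voom also called 0. The median interaction was -0.056 log2 over the members and -0.006 log2 over all genes, and without treated WT replicate 3 the members' median was -0.006 log2.

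Mrpl33, a small protein of the large subunit with a bacterial counterpart, had 63.5, 71.5 and 69.0 CPM in treated KI cells, against 64.7, 62.9 and 59.8 CPM in untreated KI cells. It had 56.2, 56.5 and 61.7 CPM in treated WT cells, against 42.5, 41.9 and 46.4 CPM in untreated WT cells. The KI groups overlapped and the WT groups did not, with untreated WT the lowest of the 4 groups. Its change was 0.12 ± 0.05 log2 in KI cells (adjusted p = 0.0526) and 0.41 ± 0.05 log2 in WT cells (adjusted p = 1.99e-07), and the interaction was -0.29 ± 0.07 log2 (adjusted p = 0.0126).

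Mrpl9, which also has a bacterial counterpart, had 56.8, 56.3 and 54.9 CPM in treated KI cells, against 53.6, 56.3 and 51.9 CPM in untreated KI cells. In WT cells it had 70.4, 70.8 and 71.8 CPM with treatment, against 60.7, 59.9 and 56.7 CPM without. Treated WT libraries stood above all others. The change was 0.05 ± 0.04 log2 in KI cells (adjusted p = 0.363) and 0.26 ± 0.04 log2 in WT cells (adjusted p = 9.04e-06), with an interaction of -0.21 ± 0.06 log2 (adjusted p = 0.0305). For Mrpl17 the interaction was -0.20 ± 0.06 log2 (adjusted p = 0.0407).

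These 3 differences lay near the threshold. The call for Mrpl33 was kept under 18 of 20 other settings and lost without treated KI replicate 1 or treated WT replicate 3. The call for Mrpl9 was kept under 12 of 20 and lost, among single libraries, without treated KI replicate 3, untreated KI replicate 1 or 2, treated WT replicate 1 or 3, or untreated WT replicate 3. The call for Mrpl17 was kept under 11 of 20 and lost without treated KI replicate 2 or 3, untreated KI replicate 1 or 3, treated WT replicate 1 or 3, or untreated WT replicate 1. Without treated WT replicate 3 the count was 0, and without treated WT replicate 1 or untreated KI replicate 1 it was 1.

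**Figure D4:**
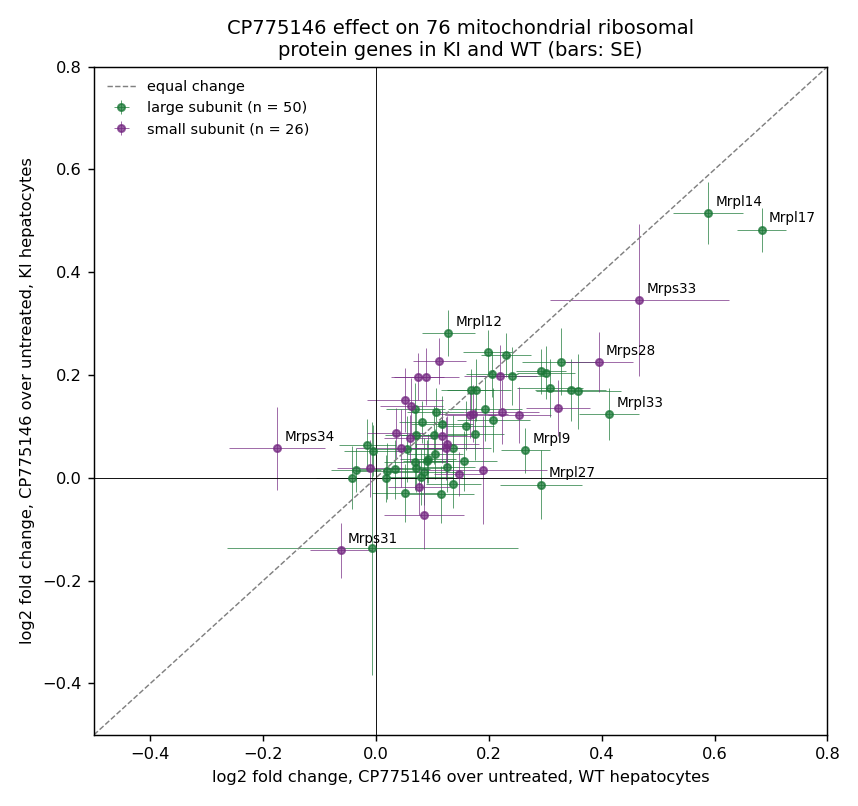
Log2 fold change of CP775146 over untreated for the 76 members in KI cells (vertical axis) and WT cells (horizontal axis), with SE bars, large subunit in green, small in purple, and a dashed line where both changes are equal. Most points lie above 0 on both axes, Mrpl17 and Mrpl14 lie farthest out, and 53 of 76 lie on the WT side of the line.

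Without treatment, the genotypes differed in members of both directions. In KI cells 17 members were higher and 5 lower than in WT cells, or 22.4% and 6.58%, against 37% called among all genes tested, 18.4% higher and 18.6% lower. The median difference was 0.048 log2 over the members and -0.004 log2 over all genes. Libraries of the genotypes did not overlap for any of the called members, nor for 96.4% of all called genes. Over all 76 members, called or not, they did not overlap for 27 (35.5%), against 47.4% of all genes tested. With total-count scaling, 40 were higher and 1 lower, against 32.1% and 11% of all genes tested. The median was then 0.149 log2 over the members and 0.098 log2 over all genes. Without untreated WT replicate 1, 11 of the 76 members were higher, against 16.3% of all genes tested. The lower members numbered 2 without untreated KI replicate 1 or 3, where 15.3% and 15.2% of all genes were lower. They numbered 3 without untreated WT replicate 2 or 3, where 15.6% and 18.1% were lower.

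The largest difference was that of Mrpl33, whose untreated KI libraries, given above, all exceeded the untreated WT libraries (0.52 ± 0.05 log2, adjusted p = 3.09e-09). Mrpl42, a mitochondrion-specific protein of the large subunit, had 35.01, 32.5 and 30.8 CPM in untreated KI cells, against 25.4, 23.1 and 27.1 CPM in untreated WT cells, with no overlap (0.38 ± 0.06 log2, adjusted p = 7.13e-06). Mrps25, of the small subunit, had 20.4, 20.25 and 19.7 CPM in untreated KI cells, against 14.8, 15.8 and 16.2 CPM in untreated WT cells, again apart (0.37 ± 0.06 log2, adjusted p = 1.12e-05). Of the exon length of Mrps25, 69.8% is shared with the antisense gene Nr2c2, on the other strand, and Nr2c2 itself was lower in untreated KI cells (-0.16 ± 0.06 log2, adjusted p = 0.0191). Mrps22, a small subunit protein specific to mitochondria, was higher by 0.19 ± 0.04 log2 (adjusted p = 0.000814).

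Mrpl58 led the members that were lower in KI cells. It encodes a peptidyl-tRNA hydrolase that frees stalled chains and is also built into the large subunit. It had 28.2, 30.45 and 29.1 CPM in untreated KI cells, against 34.7, 35.3 and 34.9 CPM in untreated WT cells, with a clear gap between the genotypes (-0.26 ± 0.05 log2, adjusted p = 0.000123). Mrps10, a small subunit protein of bacterial descent, differed by -0.18 ± 0.06 log2 (adjusted p = 0.00958), Mrpl36 by -0.15 ± 0.05 log2 (adjusted p = 0.0202) and Mrpl9 by -0.13 ± 0.04 log2 (adjusted p = 0.018). Mrpl9 lost the call without untreated KI replicate 1 or 3 or untreated WT replicate 1 or 2, Mrpl36 without untreated KI replicate 1 or 3 or untreated WT replicate 3, and Mrps10 without untreated KI replicate 3.

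With CP775146, 14 members were higher and 7 lower in KI than in WT cells, or 18.4% and 9.21%, against 42.5% called among all genes tested, 20.5% higher and 22% lower. The median difference was -0.004 log2 over the members and -0.013 log2 over all genes. With total-count scaling 41 were higher and 2 lower, against 38.0% and 11.9% of all genes. The median over all genes was then 0.124 log2 and that of the members 0.133 log2. Mrpl42 had 37.1, 37.7 and 37.8 CPM in treated KI cells, against 28.55, 29.2 and 31.6 CPM in treated WT cells (0.33 ± 0.06 log2, adjusted p = 1.95e-05). Mrps25 differed by 0.32 ± 0.06 log2 (adjusted p = 3.94e-05), Mrpl12 by 0.25 ± 0.05 log2 (adjusted p = 4.62e-05) and Mrpl33 by 0.23 ± 0.05 log2 (adjusted p = 0.000525). The groups of each of these genes were apart.

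On the lower side Mrpl9 stood out, since all its treated KI libraries lay below all treated WT libraries by a wide margin (-0.34 ± 0.04 log2, adjusted p = 1.13e-07). Mrpl17 was lower in treated KI cells by -0.25 ± 0.04 log2 (adjusted p = 1.64e-05), Mrpl36, a zinc-binding protein of bacterial descent, by -0.25 ± 0.05 log2 (adjusted p = 0.000146) and Mrpl58 by -0.18 ± 0.05 log2 (adjusted p = 0.00424). Untreated, Mrpl17 had not differed by the test (-0.05 ± 0.04 log2, adjusted p = 0.442).

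The treated and untreated comparisons of genotype share no library. Mrpl15, Mrpl18, Mrpl19, Mrpl33, Mrpl34, Mrpl42, Mrps6, Mrps15 and Mrps25 were higher in KI cells in both, which is 64.3% of the 14 with treatment and 52.9% of the 17 without, against 63.7% and 71.1% over all genes tested. Mrpl9, Mrpl36, Mrpl58 and Mrps18a were lower in both, 57.1% of the 7 with treatment and 80% of the 5 without, against 61.3% and 72.4% over all.

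The 3 Mrps18 genes encode related proteins that occupy different places in the ribosome. Mrps18a, whose product is in the large subunit, had 46.5, 48.2 and 49.9 CPM in untreated KI cells, against 53.3, 51.3 and 52.3 CPM in untreated WT cells (-0.12 ± 0.05 log2, adjusted p = 0.0492), a call kept under 8 of 20 other settings. Among single libraries it was lost without any of the treated KI or untreated WT libraries, or without untreated KI replicate 1 or 2. Mrps18b and Mrps18c, of the small subunit, passed in no comparison, and averaged 15.45 and 13.05 RPKM beside 13.7 RPKM for Mrps18a. They were among 26 members that passed in none, from both subunits, with Mrpl2, Mrpl16, Mrpl37, Mrps5, Mrps23 and Mrps34 among the others. Mrps34 shares 77.8% of its exon length with Mapk8ip3 and Nme3, which leaves a short stretch of its own.

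Summed over all 76 genes, the libraries held 2995 to 3051 CPM in treated KI cells, 2744 to 2819 CPM in untreated KI cells, 2920 to 3118 CPM in treated WT cells and 2629 to 2742 CPM in untreated WT cells. With this TMM scaling, treated sums were above untreated ones, by a ratio of 1.09 in KI cells and 1.12 in WT cells. As a share of all counts, with no such scaling, the members held 0.305% to 0.311% in treated and 0.292% to 0.300% in untreated KI cells, a ratio of 1.04. They held 0.271% to 0.286% in treated and 0.261% to 0.274% in untreated WT cells, where the libraries overlapped, and the ratio was again 1.04. The median SD of a member across the libraries of a group was 2.59% of its mean in treated KI, 3.51% in untreated KI, 5.07% in treated WT and 4.45% in untreated WT cells.

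Further proteins of this ribosome do not carry the Mrpl or Mrps name. Of 5 tested, Ptcd3, an RNA-binding protein of the small subunit, rose with CP775146 by 0.23 ± 0.04 log2 in KI cells (adjusted p = 7.61e-05) and 0.20 ± 0.04 log2 in WT cells (adjusted p = 0.000434). Dap3, a GTP-binding small subunit protein, changed by 0.01 ± 0.04 log2 in KI cells (adjusted p = 0.88) and rose by 0.11 ± 0.04 log2 in WT cells (adjusted p = 0.0477). Chchd1, Aurkaip1 and Gadd45gip1 passed in no comparison.

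Factors that build the ribosome moved both ways. Of 27 assembly genes, 6 rose and 1 fell with CP775146 in KI cells, and 10 rose and 3 fell in WT cells (medians 0.06 log2 in KI and 0.05 log2 in WT cells). The rises are 22.2% of the list in KI cells, near the 18.1% of all genes, and 37.0% in WT cells, against 22.7%. Ddx28, a helicase of large subunit assembly, averaged 32.9 ± 1.53 CPM in treated and 26.8 ± 0.677 CPM in untreated KI cells, and 35.4 ± 1.82 CPM in treated and 26.8 ± 0.199 CPM in untreated WT cells. It rose by 0.30 ± 0.05 log2 in KI cells (adjusted p = 3.22e-05) and 0.40 ± 0.05 log2 in WT cells (adjusted p = 3.19e-07). Grsf1, an RNA-binding protein of mitochondrial RNA granules, was lower in KI than in WT cells without treatment (-0.38 ± 0.04 log2, adjusted p = 1.65e-08). Tfb1m, which methylates the small ribosomal RNA, was higher there (0.41 ± 0.10 log2, adjusted p = 0.000967).

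Among mitochondrial translation factors and tRNA synthetases most changes that passed were rises. Of 17 translation genes tested, 5 rose and 0 fell in KI cells (29.4% higher, against 18.1% of all genes), and 7 rose and 1 fell in WT cells (41.2% higher, against 22.7%). Gfm1, the elongation factor that moves the ribosome along, rose by 0.26 ± 0.04 log2 in KI cells (adjusted p = 2.95e-06) and 0.25 ± 0.04 log2 in WT cells (adjusted p = 6.45e-06). Lrpprc, which stabilises mitochondrial mRNAs, was lower in KI than in WT cells without treatment (-0.38 ± 0.04 log2, adjusted p = 5.87e-09), while its partner Slirp was higher (0.29 ± 0.06 log2, adjusted p = 0.00022). Of 20 genes that charge mitochondrial tRNAs, 9 rose in KI cells (45%, median 0.12 log2), 11 rose in WT cells (55%, median 0.17 log2) and 0 fell in either. Cars2, the cysteine enzyme, rose by 0.38 ± 0.06 log2 in KI cells (adjusted p = 5.12e-06) and 0.66 ± 0.06 log2 in WT cells (adjusted p = 1.73e-10). Iars2, the isoleucine enzyme, rose by 0.28 ± 0.03 log2 in both (adjusted p = 1.03e-07 in KI and 8.91e-08 in WT cells).

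Of 15 genes for mitochondrial DNA copying, transcription and RNA processing, 6 rose (40%) and 0 fell in each genotype. Over all genes tested, 18.1% rose and 19.1% fell in KI cells, and 22.7% rose and 22.3% fell in WT cells. Twnk, the mitochondrial DNA helicase, rose by 0.26 ± 0.05 log2 in KI cells (adjusted p = 0.000246) and 0.24 ± 0.05 log2 in WT cells (adjusted p = 0.000497). Among the 12 regulators of mitochondrial gene expression, 3 rose and 4 fell in KI cells (25% and 33.3%), and 3 rose and 5 fell in WT cells (25% and 41.7%). The 25% that rose in WT cells is near the 22.7% of all genes. Ppargc1a, the coactivator PGC-1α, averaged 6.92 ± 0.916 CPM in treated and 15.6 ± 0.497 CPM in untreated KI cells, and 5.56 ± 0.364 CPM in treated and 12.1 ± 1.44 CPM in untreated WT cells. It fell, with changes of -1.16 ± 0.09 log2 in KI cells (adjusted p = 7.65e-12) and -1.12 ± 0.10 log2 in WT cells (adjusted p = 1.33e-10). Nrf1, whose protein binds the NRF1 motif, changed by -0.22 ± 0.06 log2 in KI cells (adjusted p = 0.00322) and -0.37 ± 0.06 log2 in WT cells (adjusted p = 4.97e-06), and Gabpa, an ETS factor, did not pass in either. Both were named after their values were seen, because of the motifs above. Ppara rose by 0.36 ± 0.05 log2 in KI cells (adjusted p = 1.7e-07) and 0.54 ± 0.04 log2 in WT cells (adjusted p = 3.24e-11).

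**Figure D5:**
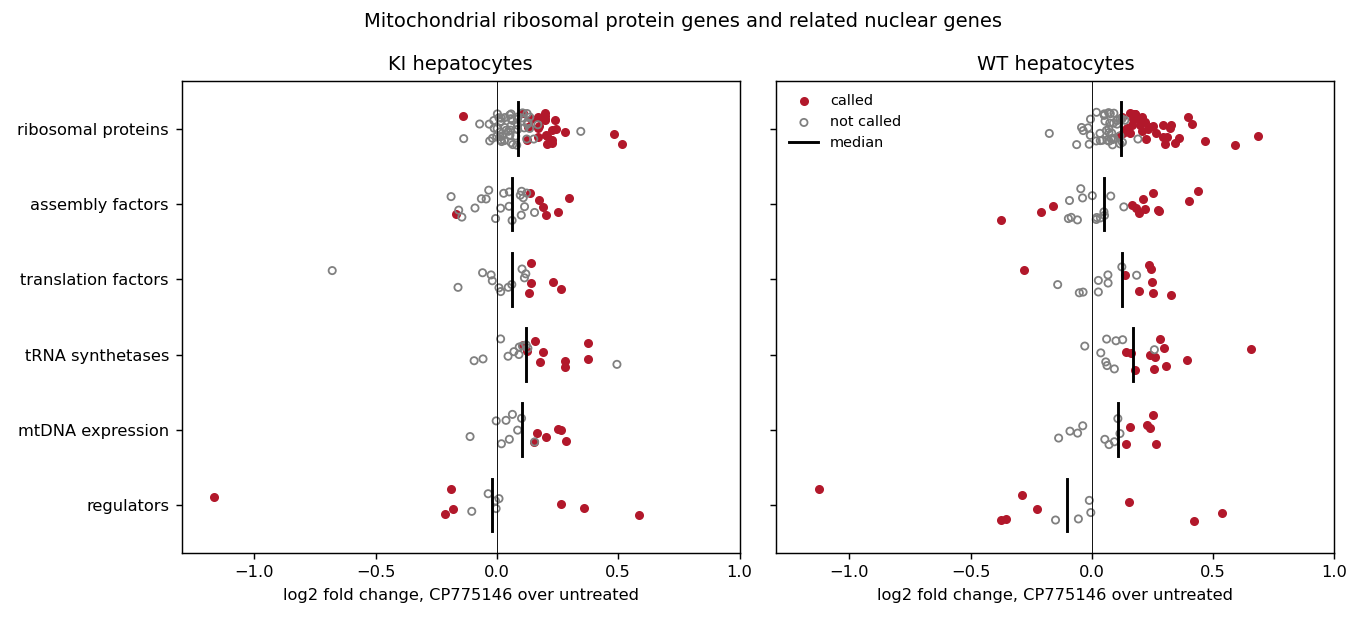
Log2 fold change of CP775146 over untreated in KI cells (left) and WT cells (right) for the 76 ribosomal protein genes and 5 lists of related nuclear genes; filled points passed edgeR's test at an adjusted p of 0.05, open points did not, and the black line is the median of a list. Medians in KI and WT cells lie at 0.085 and 0.12 log2 for the ribosomal proteins, 0.121 and 0.169 log2 for tRNA synthetases and -0.021 and -0.103 log2 for the regulators.

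Other large protein sets are given for scale. Of 84 genes of the cytosolic ribosome, 7 rose and 0 fell with CP775146 in KI cells (8.33% higher, below the 18.1% of all genes), and 26 rose and 2 fell in WT cells (31.0% higher, against 22.7%), with medians of 0.064 log2 in KI and 0.123 log2 in WT cells. Of 80 nuclear genes of the respiratory chain and ATP synthase, 29 rose in KI cells (36.2%) and 56 in WT cells (70%) and 0 fell in either, with medians of 0.111 log2 in KI and 0.186 log2 in WT cells. Differences between these sets and the members were not tested.

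The members are scattered over 17 chromosomes, with 11 genes on chromosome 11 and 8 on chromosome 17. For 33 of the 76 (43.4%) the start of an opposite-strand gene lies within 1000 bases of their own start, against 21.97% of all genes tested. One such pair is within the set. Mrps11 and Mrpl46, on chromosome 7, start 412 bases apart on opposite strands and their exons overlap. Mrpl46 changed with CP775146 by 0.11 ± 0.06 log2 in KI cells (adjusted p = 0.163) and rose by 0.21 ± 0.06 log2 in WT cells (adjusted p = 0.00953). Mrps11 changed by 0.15 ± 0.06 log2 in KI cells (adjusted p = 0.0578) and 0.05 ± 0.07 log2 in WT cells (adjusted p = 0.567). Both are named here after their values were seen, as the pair within the set.

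RefSeq windows of 300 bases were found for 67 members, 73 windows in all, and were searched on both strands. NRF1 matches stood in 13 windows (17.8%), against 4.603% of all 32851 windows of the same length. These are all windows of the RefSeq table, not only those of genes tested here, while every member was tested. ETS matches stood in 25 (34.25%, against 8.86%), matches to the YY1 motif ATGGCGG in 12 (16.4%, against 4.055%), and the E-box CACGTG in 7 (9.59%, against 7.15%). Of those 7 windows 3 are overlapping ones of Mrpl2, and by gene the E-box stood in 5 of 67 (7.46%). The motif of PPARα with its partner, AGGNCA repeated with any 1 base between, stood in 0 windows, against 0.381% of all. Because so few windows of any gene hold it, 0 of 73 cannot show that the members lack it. Member windows were richer in G and C, at a median of 58.7% against 52.7%, and the matches hold many of these bases. Of 13 genes with an NRF1 match, 9 rose with CP775146 in WT cells, as did 22 of 54 without one. Of 25 with an ETS match 10 rose, as did 21 of 42 without one. For YY1, 5 of 12 with a match and 26 of 55 without one rose, and for the E-box 1 of 5 and 30 of 62. Of all genes tested, 22.7% rose in WT cells. The splits were counted in WT cells only, and their differences were not tested. The matched letters describe the windows and show no binding.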

How the data were processed

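Each library was given as a table of raw counts per gene, which the authors made by assigning TruSeq reads to exons with featureCounts 1.6.2 and the Ensembl release 83 annotation of GRCm38, per the file headers, which show no strand, multi-mapping or overlap option. The submitters' processing notes name featureCounts 1.4.6-p4, FastQC 0.11.2, cutadapt 1.9 and edgeR 3.18.1. IDs were named with a table that matched 46488 of the 46983. The 37 genes of the mitochondrial chromosome hold 0 counts in all libraries.

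From the deposited counts, genes passing filterByExpr (minimum count 10, minimum total 15) were fitted in 1 model over all 12 libraries with edgeR 4.0.16 (R 4.3.3), TMM scaling, a robust quasi-likelihood fit and Benjamini-Hochberg adjustment over 15664 genes, at 0.05. All 76 members passed that filter. DESeq2 1.42.0 and limma 3.58.1 (voom with sample weights, added after the data were seen) were alternatives, beside other scalings, filters, replicate blocks and single libraries left out. RPKM is CPM per kilobase of exon. The steps were tested on simulated data. The members and gene lists were chosen with earlier results of these data known. Named members are, per comparison and direction, the 4 called ones with the smallest adjusted p, the 3 with the highest and the 3 with the lowest RPKM, the Mrps18 genes, Mrps36, and those sharing at least 50% of their exon length. Named genes of the related lists are among the 3 with the smallest adjusted p per list and comparison. Of the 12 pairs of libraries within groups, none agreed within sampling noise. Same-numbered libraries of different groups correlated at -0.026 to 0.063 after group means were removed, and differently numbered ones at -0.073 to 0.071. This check showed no pairing by number. It weighs genes of few counts like all others, so it cannot exclude that same-numbered libraries share a mouse or culture.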

Additional observations from a re-analysis of the deposited data

Results flagged for a closer look

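The effect of CP775146 in KI cells minus that in WT cells passed the interaction test, edgeR's quasi-likelihood test with Benjamini-Hochberg adjustment, for 3 members and for 3 genes of the related lists. The 3 members, all lower, are 3.95% of the set, against 4.33% lower and 2.78% higher among all genes tested. For the members the difference was -0.29 ± 0.07 log2 for Mrpl33 (adjusted p = 0.0126), -0.21 ± 0.06 log2 for Mrpl9 (adjusted p = 0.0305) and -0.2 ± 0.06 log2 for Mrpl17 (adjusted p = 0.0407).

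Cars2, the mitochondrial cysteine tRNA synthetase, gave -0.28 ± 0.08 log2 (adjusted p = 0.0373), a call kept under 8 of 20 other settings. Pprc1, a coactivator related to PGC-1α, averaged 81.4 ± 2.33 CPM in treated and 81.5 ± 1.401 CPM in untreated KI cells, and 69.5 ± 3.27 CPM in treated and 81.5 ± 2.65 CPM in untreated WT cells (SD, n = 3 each). Its difference was 0.22 ± 0.06 log2 (adjusted p = 0.0192), kept under 17 of 20 and lost without treated KI replicate 1, untreated KI replicate 1 or untreated WT replicate 2. Oxa1l, which inserts newly made proteins into the inner membrane, averaged 57.5 ± 3.29 CPM in treated and 58.2 ± 1.996 CPM in untreated KI cells, and 58.1 ± 2.23 CPM in treated and 70.7 ± 6.83 CPM in untreated WT cells. Its difference was 0.26 ± 0.08 log2 (adjusted p = 0.0441), kept under 10 of 20.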

How the results depend on the processing

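With total-count scaling, 40 members were higher and 1 lower in untreated KI than WT cells, against 32.1% and 11% of all genes tested. In treated KI than WT cells 41 were higher and 2 lower, against 38.0% and 11.9% of all genes. With CP775146, 13 rose and 1 fell in KI cells, against 13.2% and 27.8% of all genes. In WT cells 15 rose and 3 fell, against 15.1% and 34.1%. The interaction was negative for 1 member, against 3.31% of all genes. With this scaling, some KI minus WT differences with treatment turned positive. Among named members with a call in either fit, these were Mrpl30 (0.104 log2), Mrpl16 (0.124 log2), Mrps18a (0.001 log2) and Mrps18b (0.133 log2). Sign changes of members called with neither scaling are not listed. The members lower in untreated KI cells numbered 2 without the filter and 3 with DESeq2, which called 0 falls with treatment in KI cells. A replicate block in each genotype left 1 negative interaction, while a plain replicate block gave 17 higher and 5 lower in untreated KI cells, 13 and 7 with treatment, 24 and 1 for CP775146 in KI cells, 34 and 0 in WT cells, and 0 and 3 interactions. The cause of these shifts was not tested.

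With 1 library left out at a time, 11 to 19 members were higher and 2 to 6 lower in untreated KI cells, and 10 to 14 and 5 to 10 with treatment. CP775146 gave 14 to 28 rises and 0 to 1 falls in KI cells, 27 to 40 rises and 0 to 1 falls in WT cells, and 0 to 4 negative and 0 positive interactions. Over all genes, 16.1% to 18.4% were higher and 14.9% to 19.6% lower in untreated KI cells. With treatment 17.5% to 21.0% were higher and 18.7% to 22.3% lower. With CP775146, 15.0% to 19.2% of all genes rose and 15.2% to 19.7% fell in KI cells. In WT cells 19.6% to 22.4% rose and 19.2% to 21.5% fell. Of 2346 other values, of named genes and medians, 2202 were counted as unchanged, 99 no longer passed, 37 newly passed, 4 reversed and 4 medians moved. Unchanged gene values kept their side of the threshold. A change of sign counted as reversed only if the value passed in the main or the other fit. Medians counted as unchanged within 0.0403 log2, the pooled SD of the members' median level between replicates. Depth limits Mrpl23 and Mrps33 most.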
